A study of Mus musculus with 14 samples.

Results

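The insulin-like growth factor (IGF) ligand gene Igf1, the receptor gene Igf1r and the binding protein genes Igfbp2, Igfbp3, Igfbp4 and Igfbp6 were followed on 14 two-colour cDNA arrays of fibroblasts that lack Ptdsr. The probes were taken by gene symbol, but the symbols were chosen with earlier results of these data known. Of the 8 symbols looked for, 6 were carried by probes with values on at least 10 of the arrays. These were 9 of the 20355 probes in all, 4 of them for Igf1r and 1 for each other gene, and the 6 genes stand among 9930 with a symbol. Igfbp5 and Igfbp7 were the other symbols of the set and are not analysed here. Igf1r is the 1 receptor gene among the 6.

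Each array set RNA of Ptdsr-/- mouse fibroblasts against RNA of wild-type fibroblasts. Ptdsr, now named Jmjd6, takes its older name from a proposed role in binding phosphatidylserine on dying cells, and its product carries a JmjC domain. Cy5 marked the knockout RNA on replicates 1, 3, 4, 7, 8, 9 and 13, which are 7 arrays, and Cy3 marked it on the 7 others, replicates 2, 5, 6, 10, 11, 12 and 14. The series names 2 fibroblast cultures, but the sources used here do not tie an array to a culture or state the strain, the age of the donor animals or the passage. The spread behind each p-value is thus that between arrays, part of which may be technical. The wild-type RNA acted as 1 control sample, so its own spread is left out. The protocols also mention organs and a reference pool from control animals, and the channel labels were followed instead.

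IGF1 and IGF2 are secreted growth factors that act through the IGF1 receptor, a tyrosine kinase upstream of the PI3 kinase and MAP kinase pathways. The IGF binding proteins hold both ligands outside the cell, lengthen their life and control how much reaches the receptor. Proteases such as PAPP-A cut the binding proteins and free the ligand. Cultured fibroblasts secrete several of these binding proteins and divide in response to IGFs.

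Values are given as the log2 of knockout over wild type after each array was centred on its median, so a ratio of 2 is 1 unit and no value is a level. Usable ratios numbered between 13165 and 19615 an array. Replicates 1 (14302) and 2 (13165) were sparse, and each of the 12 remaining arrays had at least 17715. The sign is likely rather than stated. A repeated extreme ratio was positive on each of the 7 arrays whose knockout RNA carried Cy5 and negative on each of the 7 where it carried Cy3, as would follow from Cy5-over-Cy3 ratios turned before deposit. The probe of Jmjd6 ran from -1.74 to 2.92, was below 0 on 12 of 14 arrays and was not called (limma over gene means, adjusted p = 0.894). Its place relative to the deleted part is not known here. Ratios also do not allow the labelled cell type to be checked by marker levels. Markers were read against all genes, of which limma called 0.0865%, with 5.37% at an unadjusted p below 0.05. Of 15 tested fibroblast genes 0 were called and 2 had that p, both lower. Of 8 macrophage and leukocyte genes 1 was called lower (Lyz2, mean -1.62) and 2 had that p, and of 4 adipocyte genes 1 was called lower (Lpl, mean -1.02) and 2 had that p. Of the 3 smooth muscle, 5 endothelial and 5 epithelial genes tested 0 were called, and 1, an endothelial gene with a higher ratio, had that p. The median of the macrophage list ran from -2.89 to 0.33 between arrays and was above 0 on 2 of them, and its part in the results below was not tested. In such bulk RNA, fewer cells of a type and less RNA per cell cannot be told apart.

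None of the 9 probes was called in the knockout. With limma, 0 of 9 passed an adjusted p of 0.05, against 0.0324% of all 18503 tested probes. At an unadjusted p below 0.05 there were 2, both of them Igf1r probes and both higher in the knockout, against 5.05% of all probes (2.3% in that direction). That count rests on the likely direction. With the arrays of the Cy3 orientation turned, Igf1r probes 1 and 4 had means of 0.12 and 0.16 (limma, unadjusted p = 0.345 and 0.509), and Igfbp3, at -0.68, was the 1 probe with an unadjusted p below 0.05. Averaged per gene, 0 of the 6 genes were called, against 0.0865% of 9252 genes, and 0 had an unadjusted p below 0.05, against 5.37%. The 9 plain means ran from -0.20 to 0.55, with a median of -0.01, beside a median of 0.01 over the means of all tested probes.

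**Figure D1:**
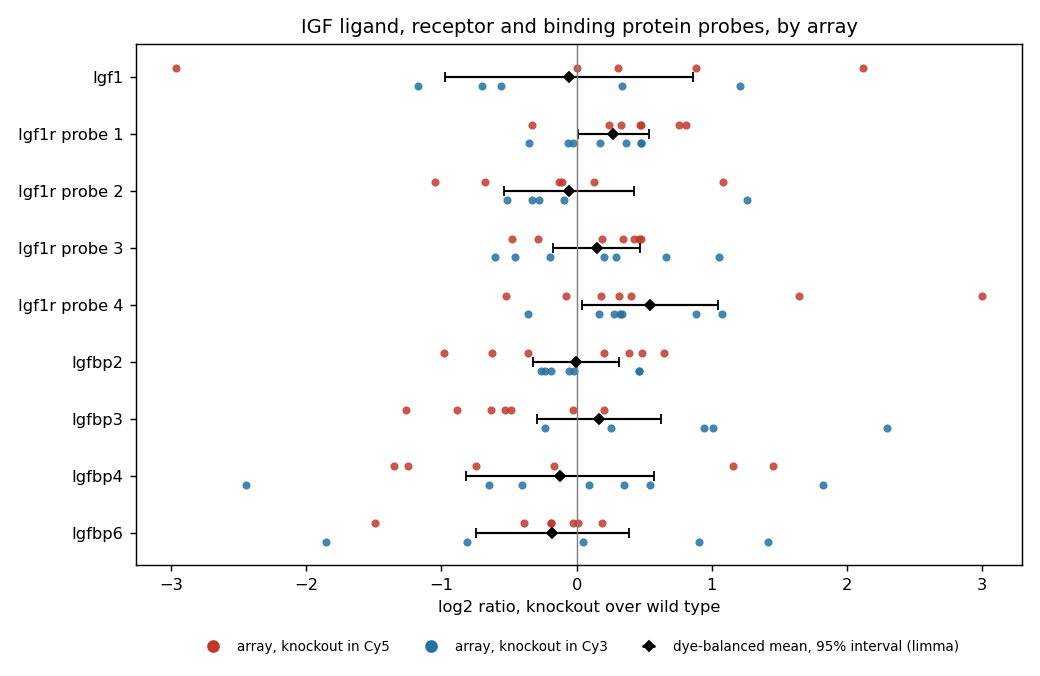
Log2 ratios of knockout over wild type (horizontal axis) for the 9 probes (rows). Red points are the arrays with the knockout in Cy5, blue points those with it in Cy3, and the black diamonds with bars are the dye-balanced means with 95% intervals from limma. The intervals of Igf1r probes 1 and 4 lie above 0 and those of the other 7 probes span it.

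The ligand gene Igf1 was measured on 10 arrays. Its ratios had a lowest value of -2.96 (replicate 3), a median of 0.15 and a highest value of 2.12 (replicate 8). They were above 0 on 5 arrays, below 0 on 4 and at 0 on 1, so the arrays did not share a direction. The mean was -0.05 ± 1.41 (SD, n = 10), and the dye-balanced mean, which weights both dye orientations equally, had a 95% interval from -0.97 to 0.86 (limma, adjusted p = 0.988). That interval still contains a 1.82-fold increase and a fall to 0.511 of wild type. As it takes the arrays as independent, changes of up to those sizes, and possibly larger ones, are not excluded. On replicate 12 the ratio was the coded extreme of that array (-16.017 as deposited), read as a channel at 0, and it was set to missing. Of the 10 ratios, 5 matched a ratio of whole numbers up to 10, a pattern taken as a stand-in for dim spots since intensities are not used here. The median tested probe had 15.4% of such values. The SD between arrays exceeded that of 81.9% of tested probes.

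The receptor gene Igf1r, whose product carries the signal of both ligands, was the member gene with the smallest p in the likely direction. Averaged on each array over those of its 4 probes with a value, its ratio was 0.26 ± 0.40 (SD, n = 14). The lowest value was -0.46 (replicate 12), the median 0.22 and the highest 0.86 (replicate 1). Probe 2, the only Igf1r probe with a mean below 0, had no usable value on replicates 1, 5 and 6. The gene values of those arrays are thus means of probes 1, 3 and 4 alone. The gene mean was above 0 on 10 of 14 arrays. The gene did not pass (limma, unadjusted p = 0.0594, adjusted p = 0.894), and the 95% interval of its mean ran from -0.01 to 0.54. With the arrays of the Cy3 orientation turned its mean was 0.05 (limma, unadjusted p = 0.681).

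The 4 Igf1r probes, numbered in platform order, did not agree. Probe 1 ran from -0.35 (replicate 12) through a median of 0.35 to 0.81 (replicate 13) and was above 0 on 10 of 14 arrays. Its mean was 0.27 ± 0.36 (SD, n = 14), a 1.21-fold higher ratio, with a 95% interval from 0.01 to 0.54 (limma, unadjusted p = 0.0448, adjusted p = 0.895). It was the tightest of the 9 probes: only 5.46% of tested probes had a smaller SD, and 0 of its 14 ratios matched small whole numbers.

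Probe 3 of Igf1r was also measured on every array and ran from -0.60 (replicate 12) through a median of 0.25 to 1.05 (replicate 6). Its mean was 0.15 ± 0.48 (SD, n = 14), above 0 on 9 of 14 arrays, with a 95% interval from -0.17 to 0.47 (limma, adjusted p = 0.914). Across the 14 arrays it ranked almost as probe 1 did (Spearman rho 0.889, Pearson r 0.819).

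Probe 4 of Igf1r had the highest mean of the 9 probes, 0.55 ± 0.90 (SD, n = 14), a 1.46-fold higher ratio above 0 on 11 of 14 arrays (limma, unadjusted p = 0.0359, adjusted p = 0.895). Its 95% interval ran from 0.04 to 1.05. Its values had a lowest of -0.52 (replicate 4), a median of 0.32 and a highest of 3.0 (replicate 13), followed by 1.64 on replicate 1 and 1.07 on replicate 2. The ratios of these 3 arrays and of replicate 14 were the 4 that matched small whole numbers. With such ratios set to missing on all arrays the mean of probe 4 was 0.17 (limma, adjusted p = 0.836), and without replicate 13 it was 0.35.

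Probe 2 of Igf1r was measured on 11 arrays and lay on the other side of 0. On replicate 6 its ratio was the coded extreme of that array (-16.566 as deposited) and was set to missing. The 11 ratios ran from -1.04 (replicate 13) through a median of -0.13 to 1.26 (replicate 14), with 8 of them below 0. Their mean was -0.06 ± 0.69 (SD, n = 11; limma, adjusted p = 0.983). On replicate 13, where probes 1, 3 and 4 were at 0.81, 0.48 and 3.0, probe 2 was at its lowest. Its rank correlation with the other Igf1r probes over the 11 shared arrays was -0.03 with probe 1, 0.20 with probe 3 and -0.37 with probe 4 (Pearson r -0.20, 0.13 and -0.52).

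The rank correlations among probes 1, 3 and 4 were 0.889, 0.513 and 0.538, where 642 pairs of probes of 1 gene, from 483 genes with 2 or more complete probes, had a median of 0.176 and quartiles of -0.0989 and 0.463. These correlations are descriptions without a p, as the arrays share RNA and are not independent. The stretch of the Igf1r transcript that each probe covers is not stated in those sources either.

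**Figure D2:**
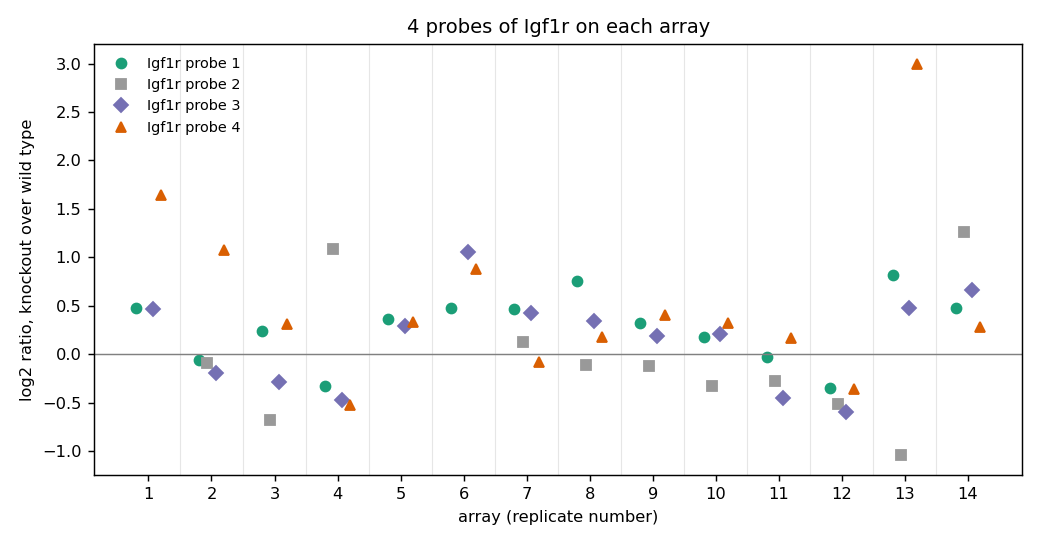
Log2 ratio of knockout over wild type (vertical axis) of the 4 Igf1r probes on each of the 14 arrays (horizontal axis, replicate number), with a symbol for each probe. Probes 1 and 3 lie close together on most arrays, probe 4 stands high on replicates 1, 2 and 13, and probe 2 stands apart on replicates 4, 13 and 14.

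The binding protein genes had no common direction. Plain means were -0.01 for Igfbp2, 0.05 for Igfbp3, -0.12 for Igfbp4 and -0.20 for Igfbp6, each smaller than its SD between arrays.

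Igfbp2 encodes a binding protein with an RGD motif that can contact integrins. Its ratios ran from -0.98 (replicate 1) through a median of -0.04 to 0.65 (replicate 9), above 0 on 6 arrays and below 0 on 8. The mean was -0.01 ± 0.47 (SD, n = 14), and the 95% interval from -0.32 to 0.31 was the second narrowest of the 9 after that of Igf1r probe 1. With the arrays taken as independent, it contains ratios between 0.799 and 1.24 of wild type (limma, adjusted p = 0.996). The arrays share RNA, so changes beyond those limits are not excluded. Only 1 of the 14 Igfbp2 values matched small whole numbers.

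Igfbp3 encodes the main carrier of IGFs in serum, which forms a complex with the acid-labile subunit. It was measured on 12 arrays, from -1.26 (replicate 9) through a median of -0.13 to 2.30 (replicate 2), above 0 on 5 and below 0 on 7. The plain mean was 0.05 ± 0.98 (SD, n = 12) and the dye-balanced mean 0.17, with a 95% interval from -0.29 to 0.63 (limma, adjusted p = 0.932). The missing arrays, replicates 10 and 11, both had the knockout in Cy3, which is why the 2 means differ. Of the 12 values, 5 matched small whole numbers (replicates 7, 8, 9, 12 and 13).

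Igfbp4 encodes a binding protein that restrains IGF action and is cut by PAPP-A. Its ratios on 13 arrays ran from -2.44 (replicate 2) through a median of -0.17 to 1.82 (replicate 14). They were above 0 on 6 arrays and below 0 on 7, and those 2 arrays at the ends lay over 4 units apart. The mean was -0.12 ± 1.21 (SD, n = 13), with a 95% interval from -0.82 to 0.57 (limma, adjusted p = 0.972). Without replicate 2 the dye-balanced mean was 0.07.

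Igfbp6 encodes the binding protein that prefers IGF2 to IGF1. On 12 arrays it ran from -1.85 (replicate 14) through a median of -0.10 to 1.42 (replicate 2), above 0 on 5 and below 0 on 7. The mean was -0.20 ± 0.90 (SD, n = 12), with a 95% interval from -0.74 to 0.39 (limma, adjusted p = 0.943). Without replicate 14 the dye-balanced mean was 0.05. Of the 12 values, 5 matched small whole numbers. Across the 11 arrays that measured both, Igfbp6 ran against Igfbp4 (Spearman rho -0.536, Pearson r -0.754), with replicate 2 high in Igfbp6 and low in Igfbp4 and replicates 3 and 14 the reverse.

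The dye orientations were compared for each probe in the same fit. Of the 9 probes, 0 had a dye term at an adjusted p below 0.05 (0.0054% of all probes did) and 1 had one at an unadjusted p below 0.05 (7.66% of all probes did). That probe was Igfbp3. With the knockout in Cy5 its ratios ran from -1.26 to 0.20, below 0 on 6 of 7 arrays, with a mean of -0.52 ± 0.49 (SD, n = 7). With the knockout in Cy3 they ran from -0.24 to 2.30, above 0 on 4 of 5 arrays, with a mean of 0.85 ± 0.96 (SD, n = 5). The orientations overlapped, and the fitted difference of -1.37 did not pass (limma, unadjusted p = 0.0065, adjusted p = 0.494). It ranked 238 of 18503 probes by p.

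Within replicates 1 to 6 Igfbp3 stood at -0.03, 0.20 and -0.63 with the knockout in Cy5 and at 2.30, 0.94 and 1.01 with it in Cy3. Within replicates 7 to 12 it stood at -0.53, -0.88 and -1.26 with the knockout in Cy5 and at -0.24 on the single measured array with it in Cy3. Replicate 13 (knockout in Cy5) was at -0.48 and replicate 14 (knockout in Cy3) at 0.25. The ranges are parts of the same values that gave the dye term, so their order adds no separate evidence. If the arrays with the knockout in Cy3 had not been turned before deposit, the knockout ratio of Igfbp3 would be -0.68 (limma, adjusted p = 0.494). A dye effect and unturned arrays cannot be told apart for this gene. Igf1r probe 1 averaged 0.39 ± 0.38 where the knockout carried Cy5 and 0.15 ± 0.31 where it carried Cy3 (SD, n = 7 each; limma, dye term adjusted p = 0.841).

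**Figure D3:**
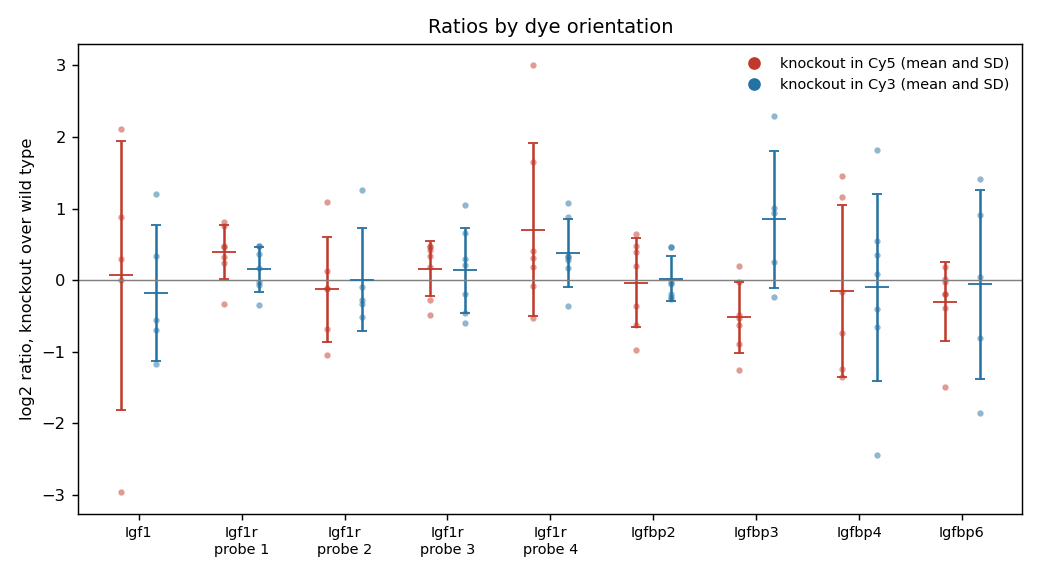
Log2 ratio of knockout over wild type (vertical axis) for the 9 probes (horizontal axis), with arrays that had the knockout in Cy5 in red and those with it in Cy3 in blue. Points are arrays and bars are means with SD. Igfbp3 shows the widest gap between the orientations, -0.52 against 0.85, and its points overlap.

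Replicates 1 to 6 and 7 to 12 were set apart because of earlier results on these data, though no label makes them groups, so their values are given without a test. Igfbp2 was below 0 on 5 of 6 arrays of replicates 1 to 6, at a mean of -0.33 ± 0.48 (SD, n = 6), and above 0 on 4 of 6 arrays of replicates 7 to 12, at 0.29 ± 0.33 (SD, n = 6). Its mean near 0 thus joined ranges with means on opposite sides of 0, whose values overlapped, from -0.98 to 0.46 and from -0.19 to 0.65. Igfbp3 had a mean of 0.63 ± 1.02 (SD, n = 6) in the first range and of -0.73 ± 0.44 (SD, n = 4) in the second, where all 4 measured arrays were below 0. Igf1 was below 0 on 3 of 5 arrays in the first range and above 0 on all 3 measured arrays in the second, at 0.30, 2.12 and 1.21. Replicate 12, also in the second range, held the negative coded extreme that was set to missing, so no shared direction is read there. The Igf1 ratios of replicates 2 and 5 in the first range and 7 and 8 in the second matched small whole numbers. Igf1r probe 1 had nearly equal means of 0.19 ± 0.33 and 0.23 ± 0.39 (SD, n = 6 each). Igf1r probe 4 had means of 0.62 ± 0.75 and 0.11 ± 0.28 (SD, n = 6 each), and replicates 13 and 14 added 3.0 and 0.28.

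**Figure D4:**
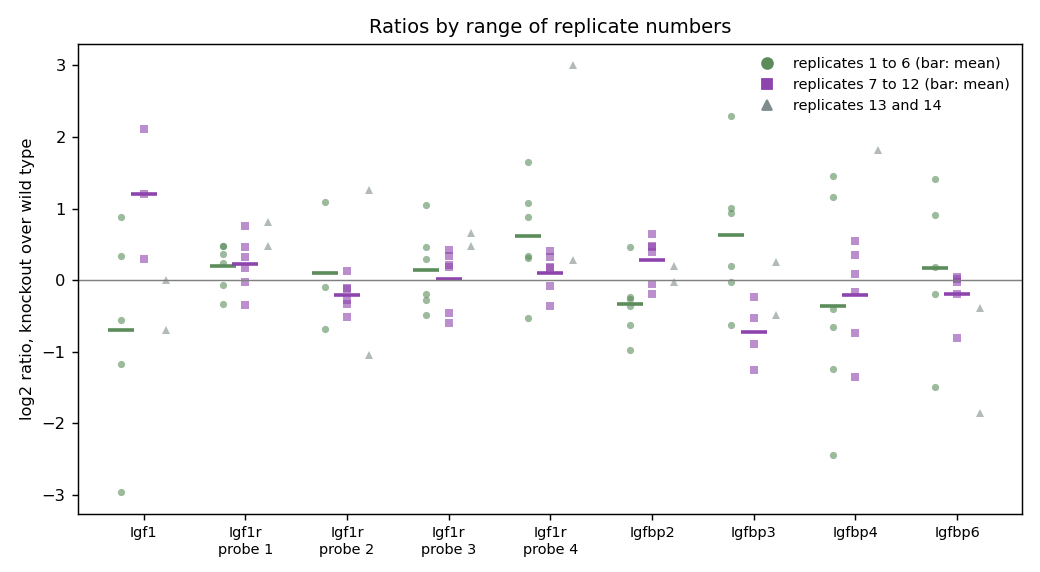
Log2 ratio of knockout over wild type (vertical axis) for the 9 probes (horizontal axis), by range of replicate numbers. Green circles are replicates 1 to 6, purple squares replicates 7 to 12 (bars are means) and grey triangles replicates 13 and 14. The range means lie on opposite sides of 0 for Igf1, Igf1r probe 2, Igfbp2, Igfbp3 and Igfbp6. The negative coded extremes of Igf1 (replicate 12) and Igf1r probe 2 (replicate 6) are left out of points and means.

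The patterns most like that of Igf1r were sought among the 4490 probes that had values on all 14 arrays and 1 gene symbol and were no members. The highest rank correlations with its gene mean were those of Mvp (rho 0.921, r 0.837), the major vault protein gene, Mbnl2 (rho 0.899, r 0.872), a splicing regulator, and Rac1 (rho 0.890, r 0.859), a small GTPase. Their own mean ratios were 0.15, 0.06 and 0.14, with SDs of 0.64, 0.42 and 0.38 between arrays. For Igf1, the member with the widest spread, the most alike over its 10 arrays were Elp3 (rho 0.891, r 0.670), a subunit of the Elongator complex, Prorsd1 (rho 0.842, r 0.693) and Ss18l2 (rho 0.842, r 0.861). All points of a pattern share the arrays and their centring, and the highest of 4490 correlations over so few arrays is high by selection.

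The remaining genes of the IGF pathway were given by a list of 73 genes, of which 46 were tested as gene means. With limma 0 of 46 were called in either direction, and 3 had an unadjusted p below 0.05 (2 higher and 1 lower), against 5.37% of all genes (2.38% higher and 2.99% lower). Their means were above 0 for 23 and below 0 for 23, with a median of -0.01, and 50.6% of all 9252 genes were above 0, with a median of 0.00334. The pathway list's share of genes at that p, 3 of 46, was near the background.

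Among the other ligands and receptors, Igf2, the second ligand, had a mean of 0.67 ± 0.68 (SD, n = 14; limma, adjusted p = 0.576). Its values ran from -0.43 to 0.58 on replicates 1 to 6 and from 0.63 to 1.97 on replicates 7 to 12. How many of all genes separate in this way was not counted. Igf2r, which clears IGF2 by taking it into lysosomes, ran from -1.37 through a median of 0.54 to 2.10, above 0 on 11 of 14 arrays, with a mean of 0.47 ± 0.88 (SD, n = 14; limma, adjusted p = 0.894).

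Of 29 tested adaptors and kinases, 0 were called by limma, 2 had an unadjusted p below 0.05, and their means were above 0 for 14 and below 0 for 15. Inppl1, a lipid phosphatase that limits PI3 kinase signalling, ran from -0.26 through a median of 0.36 to 2.15, with a mean of 0.61 ± 0.79 (SD, n = 13; limma, adjusted p = 0.834). Shc1, the adaptor between receptor tyrosine kinases and Ras, ran from -2.40 through a median of -0.31 to 0.77, with a mean of -0.56 ± 1.0 (SD, n = 14; limma, adjusted p = 0.894). Arrays lay on both sides of 0 for each gene, with 10 of 13 above 0 for Inppl1 and 9 of 14 below 0 for Shc1.

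The 7 tested proteases of binding proteins and their inhibitors had 0 called members by limma and 0 at an unadjusted p below 0.05, with means from -0.67 to 0.28. The 6 other carriers and IGFBP-like genes likewise had 0 and 0, with means from -0.35 to 0.45. The lowest of these carriers was Igfbp1, named here for its position and after its values were seen. In the RefSeq annotation used here it is the nearest protein-coding neighbour of Igfbp3 on one side. Igfbp1 ran from -2.70 through a median of -0.03 to 0.91 and had a mean of -0.35 ± 1.02 (SD, n = 14; limma, adjusted p = 0.894). Arrays of the Cy5 orientation averaged -0.04 ± 0.69 and those of the Cy3 orientation -0.67 ± 1.25 (SD, n = 7 each). The dye term of Igfbp1 did not pass (limma over gene means, adjusted p = 0.796), so no order of the orientations is read from it.

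**Figure D5:**
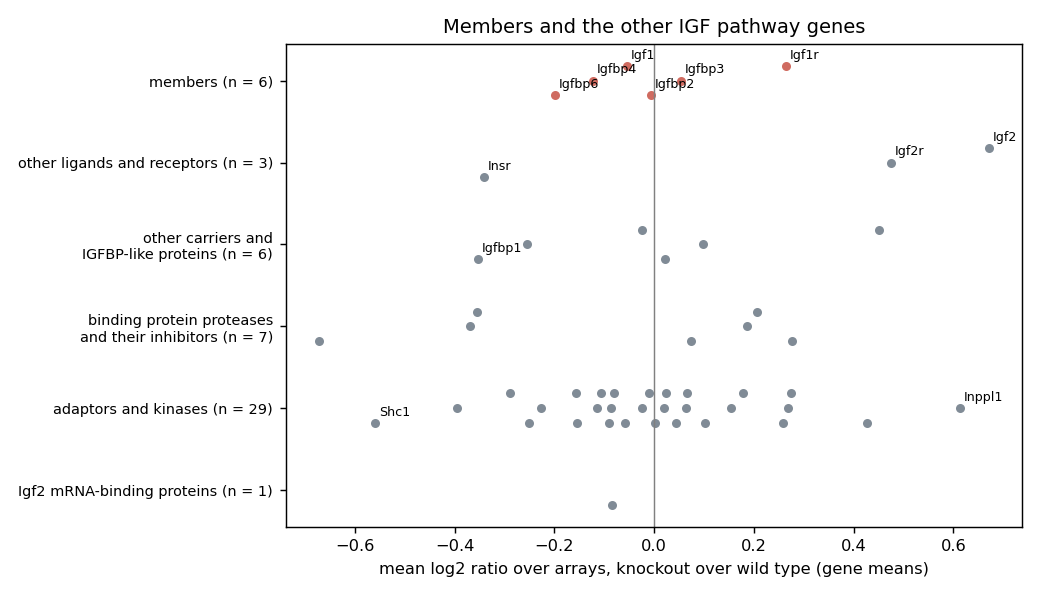
Mean log2 ratio of knockout over wild type over the arrays (horizontal axis) of the 6 member genes (red, top row) and of 46 other IGF pathway genes (grey) grouped by role. Genes named in the text, and Insr, carry their symbols. Each row holds means on both sides of 0, except the last, which has 1 gene.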

How the data were processed

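The values are log2 ratios that the authors deposited for 20355 probes, 1 per array, with the base inferred from the values themselves. Per the labels, knockout and wild-type RNA were reverse transcribed and labelled indirectly with Cy3 and Cy5. The sources used here state no scanner, background correction or normalization. The medians as deposited lay between -0.334 and 0.245. Values above 12 in size, a code for a channel at 0, were set to missing, then the array median was subtracted.

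A probe was tested where 10 or more arrays, with 4 or more in each dye orientation, measured it, using limma 3.58.1 in R 4.3.3 (lmFit and eBayes). The model held an intercept tested against 0 (the dye-balanced mean) and a dye term of +1 and -1, with Benjamini-Hochberg adjustment over all 18503 probes, or over 9252 means of probes per gene. A call is an adjusted p below 0.05. Platform annotation gave 1 symbol for 14030 probes, several for 5 and none for 6320. Ratios within 0.0011 of a ratio of whole numbers up to 10 were 13.4% to 31.4% of the values, by array, where a shifted grid matched 2.10% to 3.45%.

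The members and lists were chosen with earlier results of these data known. Every member is named. Of the pathway list the 4 genes with the smallest p are named, and of likeness the 3 highest rank correlations for the member genes with the smallest p and the widest spread. Igfbp1, Lyz2, Lpl and Insr were named outside that rule after their values were seen.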

Additional observations from a re-analysis of the deposited data

Results flagged for a closer look

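A value far from the others was looked for in 29 groups of 5 to 10 arrays (each dye orientation of 14 member and named pathway measures, and all 10 arrays of Igf1), and chance alone flags about 1 in 20 such groups. There were 2 such values. Igf1r probe 2 stood at 1.26 on replicate 14, far above the other 4 measured arrays with the knockout in Cy3. The coded negative extreme of replicate 6, in the same orientation, had been set to missing before this search. Igfbp6 stood at -1.49 on replicate 3, far below the other 6 arrays with the knockout in Cy5. This Igfbp6 ratio matched small whole numbers, the stand-in for dim spots, and the flagged ratio of Igf1r probe 2 did not.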

How the results depend on the processing

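No member probe, member gene, dye term of a member or pathway gene was called under any of the alternatives run for it: values as deposited, coded extremes kept, stricter and looser filters on missing values, small whole-number ratios set to missing, no dye term, turned Cy3 arrays, robust and trended eBayes, either dye orientation alone, blocks of number ranges, arrays scaled to 1 spread, replicates 1 and 2 left out, the widest-spread probe per gene, or any 1 array left out. The smallest adjusted p of a member probe among them, for knockout over wild type, was 0.454 (Igf1r probe 4, number ranges as a fixed block). The means of Igf1r probes 1, 3 and 4 stayed above 0 throughout, between 0.12 and 0.39, 0.01 and 0.24, and 0.16 and 0.79 under the alternatives. With coded extremes kept, Igf1 stood at -1.39 and Igf1r probe 2 at -1.44, the largest moves of a member mean among the alternatives, each through 1 coded value, and the gene mean of Igf1r was -0.046. The other means, between -0.18 (Igfbp6) and 0.17 (Igfbp3) in the main fit, each changed sign under some setting. Igfbp6 did so only with replicate 14 left out. With the Cy3 arrays turned, Igf1 was 0.12 and Igfbp3 -0.68. With the knockout in Cy5 alone they were 0.068 and -0.52. With the knockout in Cy3 alone, Igf1r probe 2 was 0.0093 and Igfbp2 0.022. With number ranges as a fixed block, Igf1 was 0.058, Igf1r probe 2 0.012, Igfbp2 0.016 and Igfbp4 0.46. With arrays scaled to 1 spread, Igfbp2 was 0.040. Without replicates 1 and 2, Igfbp2 was 0.036, Igfbp3 -0.053 and Igfbp4 0.18. With 1 array left out in turn, Igf1 ran from -0.31 to 0.32, Igf1r probe 2 from -0.21 to 0.034, Igfbp2 from -0.063 to 0.073, Igfbp3 from -0.012 to 0.30, Igfbp4 from -0.28 to 0.071 and Igfbp6 from -0.36 to 0.046. The cause of these changes was not tested. Igf1, Igf1r probe 2, Igfbp3, Igfbp4 and Igfbp6 had no value when all 14 arrays were required, nor did Igf1, Igf1r probe 2, Igfbp3 or Igfbp6 keep enough values once small whole-number ratios were removed. Each ratio already pairs the genotypes within an array. The main fit held no block of arrays. Number ranges served as blocks only among the alternatives, alone as a fixed block or combined with dye orientation as a random block.

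The ratios carry no intensity, so signal over background limits the dim probes to an unknown extent. The number of arrays, their unknown ties to 2 cultures and the unstated direction limit every mean given.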
